A study of Brachypodium distachyon with 8 samples.

Results

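The genes described here are those whose mRNA was lower after methyl jasmonate (MeJA) than after mock treatment in the *Brachypodium distachyon* leaf libraries that hold the *LITTLE NINJA* (*LNJ*) transcript, and not in the libraries that lack it. A gene was taken when its mean FPKM (fragments per kilobase, relative to all mapped fragments of the library) over the 8 libraries was at least 1, its mock mean was at least 2 times its MeJA mean in the libraries labelled WT, and both mock values lay above both MeJA values there. It was left out when it met the same criterion in the libraries labelled MTL-OX, or rose 2-fold there without overlap of the replicates. This gave 129 genes of 14922 with a mean FPKM of at least 1 and of 27830 listed.

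The 4 groups were MeJA-treated and mock-treated samples labelled WT, and MeJA-treated and mock-treated samples labelled MTL-OX, with 2 libraries in each. The study's methods describe wild-type Bd21-3 and plants that carry an *LNJ* overexpression construct, with each sample made from leaves of 12 plants, 4 wk old. The MeJA spray held 100 μM of the hormone in a Tween solution, and the mock spray held the detergent without it. The promoter of the construct and the transgenic line or lines behind each library are not given in the sources used here. The numbers of sprays differ between passages of the methods.

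*LNJ* (BRADI1G69970) goes against the genotype labels. It had 597 and 581 FPKM in the MeJA-treated libraries labelled WT and 689 and 762 FPKM in the mock-treated ones. Among those labelled MTL-OX it had 0 and 0.834 FPKM after MeJA, the higher value from 1 fragment, and 0 in each of the mock-treated libraries. These values are of the locus identifier that the study gives for *LNJ*, which it describes as a splice form of a larger *NINJA*-type gene, and the tables do not separate splice forms. Labels and table names disagree on the genotype of every library. The groups are therefore called by their labels throughout, and every statement on genotype turns round if the table names are right.

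Jasmonates are plant hormones made from fatty acids, and they are known for inducing defence genes while growth is restrained. In *Arabidopsis*, the isoleucine conjugate of jasmonic acid brings JAZ repressors to the COI1 receptor complex for degradation, which frees transcription factors such as MYC2. NINJA is an adaptor that links JAZ proteins to the TOPLESS corepressor, and LNJ is a small protein related to NINJA. Genes lowered by jasmonate treatment of leaves are commonly those of photosynthesis and growth. The JAZ gene BRADI1G21490 and *NINJA* (BRADI2G11790) were not among the 129 genes.

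The roles of the 129 genes could not be given. None of the 14814 BRADI identifiers tested was matched in the RefSeq gene table of this species, and the deposited tables name 2 of the 129, both of them miRNA genes. Lists for jasmonate synthesis and signalling, photosynthesis and other groups, and the markers of mesophyll and other leaf cells, depend on such names and were not applied. The leaf origin of the libraries was not checked against markers for the same reason. In whole leaves, fewer cells of a type and less RNA per cell cannot be told apart.

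The confidence bounds in the tables imply the number of fragments behind each value, and these summed to between 13452995 and 15821699 per library. Of the values that rest on fewer than 20 fragments, between 82.7% and 84.0% in a library lay within 0.05 of a whole fragment. Median-ratio factors were 1.06 and 1.07 for the MeJA-treated libraries labelled WT and 1.05 and 1.04 for the mock-treated ones. They were 0.993 and 1.11 for the MeJA-treated libraries labelled MTL-OX and lowest, at 0.850 and 0.937, for the mock-treated ones of that label.

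By the criterion of a 2-fold lower mean without overlap, 175 of the 14922 tested genes (1.17%) were lowered in the libraries labelled WT and 135 (0.905%) in those labelled MTL-OX. Of the 175, 129 (73.7%) were lowered in the libraries labelled WT alone, 35 were also lowered in those labelled MTL-OX, and 11 were raised there. The same criterion found 620 genes (4.15%) raised in the libraries labelled MTL-OX. With 1 library left out, the rule gave more genes where that library was labelled WT. A pair cut to 1 library has fewer values to hold apart, which makes the no-overlap criterion easier to meet in that pair. This criterion then takes in more genes under the label WT and leaves out more under MTL-OX. How far it accounts for the counts was not tested. The rule gave 199 genes without replicate 3 and 241 without replicate 4 of the MeJA-treated libraries labelled WT. For the mock-treated ones it gave 277 without replicate 1 and 200 without replicate 2. Without 1 library labelled MTL-OX it gave 100 to 119 genes, and 22 of the 129 genes met the rule with each library left out in turn. These counts chose the genes, and both MeJA comparisons are therefore given as descriptions without a test.

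The 129 genes had a median log2 difference, MeJA minus mock on the log2(FPKM + 1) scale, of −0.96 in the libraries labelled WT (from −8.20 to −0.18). Their median in the libraries labelled MTL-OX was −0.02 (from −1.57 to 3.67). Over all tested genes the medians were 0.03 in the libraries labelled WT and 0.18 in those labelled MTL-OX. After median-ratio scaling these all-gene medians were −0.004 and −0.01. Such scaling brings them close to 0 by design, so nothing is read from this about the 0.18. The log2(FPKM + 1) scale understates the changes of genes with low values. By ratio of the means, the mock value in the libraries labelled WT was a median of 2.45 times the MeJA value over the 121 genes that were above 0 after MeJA, with a range of 2.00 to 20.6. The fold lay between 2 and 2.5 for 68 genes and between 2.5 and 4 for 39. The remaining 22 had a fold of at least 4 or were listed at 0 after MeJA.

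**Figure D1:**
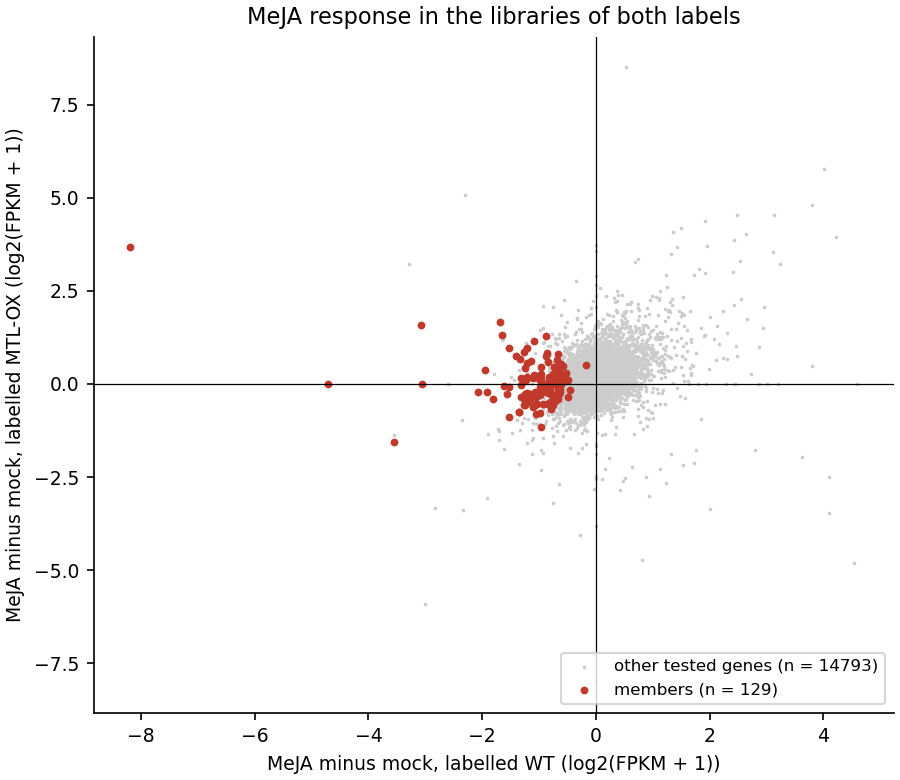
Each point is a gene with a mean FPKM of at least 1, placed by its MeJA minus mock difference on the log2(FPKM + 1) scale in the libraries labelled WT (horizontal) and in those labelled MTL-OX (vertical); red points are the 129 genes lowered only in the libraries labelled WT. The red points lie left of 0 by the rule that chose them, with a median of −0.96 on the horizontal axis and −0.02 on the vertical axis.

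Many genes lay close to the threshold. Just inside it, 25 genes had a fold of 2.002 to 2.098. Just outside it, 24 further genes met the other criteria with a fold of 1.903 to 1.999. Another 80 genes had a 2-fold lower mean in the MeJA-treated libraries labelled WT but overlapping replicates. On the level criterion, 8 of the 129 genes had a mean FPKM of 1 to 1.1, and 9 genes with a mean of 0.9 to 1 met the rest of the rule.

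The rule left a wide range in the libraries labelled MTL-OX, where 82 of the 129 genes differed by less than 1.5-fold between the treatments. The mean was higher after MeJA in 57 genes, higher after mock treatment in 70 and equal in 2. These 2 genes were listed at 0 in all 4 libraries of that label and are counted among the 82, though no fold can be given for them. Without regard to fold, both MeJA values lay below both mock values in 20 genes (15.5%), against 6.51% of all tested genes, and above both in 7 (5.43%), against 40.4% of all tested genes. These shares are of unscaled FPKM, and the mock-treated libraries labelled MTL-OX had the lowest median-ratio factors. A 2-fold ratio of the means with overlapping replicates was found for 2 genes that were lower after MeJA and for 9 that were higher.

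The rule sets the order of the pairs labelled WT, and the levels are given as a description. The median FPKM over the genes was 1.38 and 1.17 in that pair and 3.43 and 3.80 in the mock-treated pair labelled WT. It was 3.10 and 3.84 in the MeJA-treated libraries labelled MTL-OX and 3.60 and 2.99 in the mock-treated ones. The pairs of medians of the 3 other groups overlapped one another.

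In 26 genes (20.2%) both mock values of the libraries labelled WT lay above all 6 other libraries, which was the case for 4.62% of all tested genes. In 68 genes (52.7%) both MeJA values of that label lay below all 6 other libraries, against 3.89% of all tested genes. Both patterns were present in 5 genes (3.88%, against 0.0871% of all tested genes) and neither in 40 (31.0%, against 91.6%). The first alone was present in 21 (16.3%, against 4.54%) and the second alone in 63 (48.8%, against 3.81%). The rule requires the order of the 2 pairs labelled WT, so nothing is read from these shares. After median-ratio scaling, 19 genes had the high mock pair and 77 the low MeJA pair. The shares over all tested genes were not computed after scaling, so nothing is read from these counts either.

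**Figure D2:**
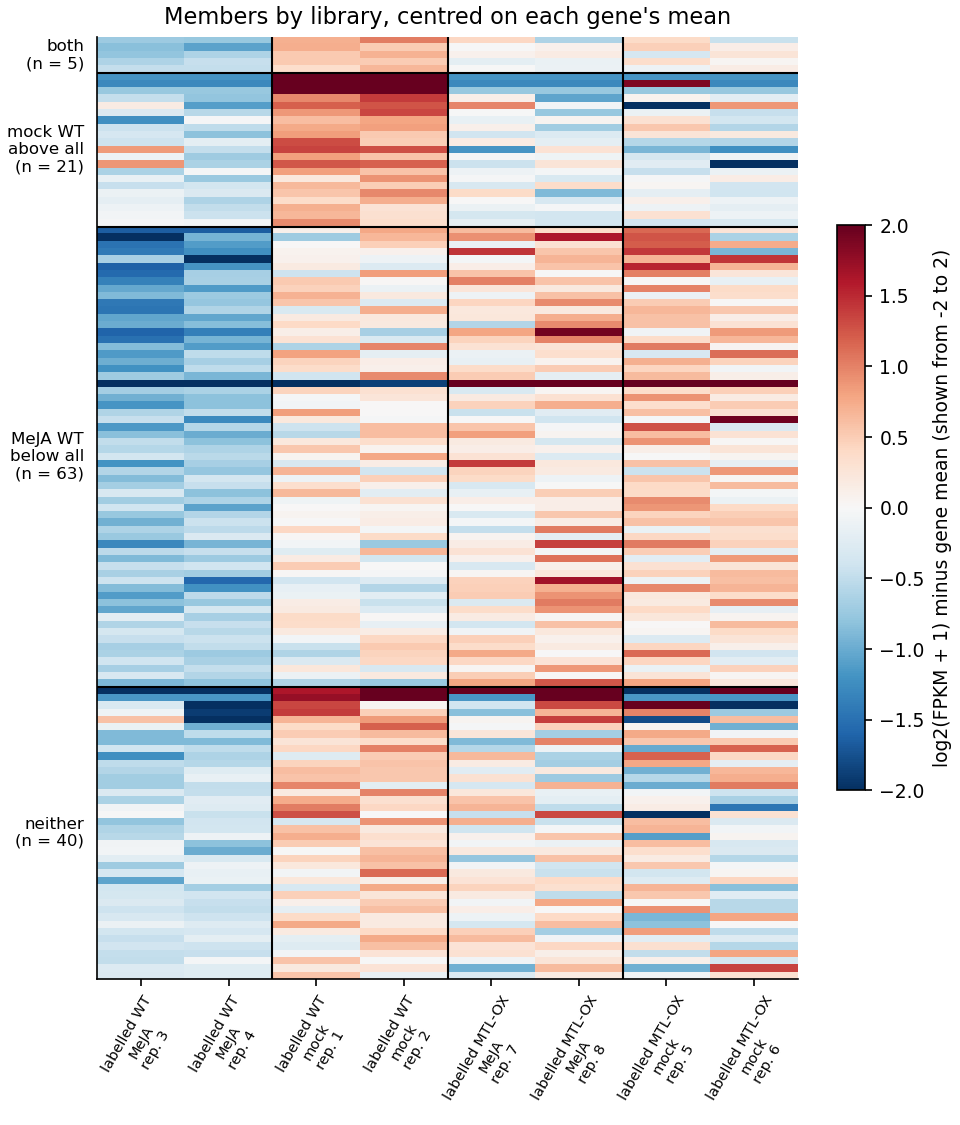
Rows are the 129 genes and columns the 8 libraries; colour gives log2(FPKM + 1) minus the mean of the gene over the 8 libraries, with values beyond −2 and 2 shown at the ends of the scale. Rows are grouped by which pair labelled WT stands apart from the other 6 libraries (both pairs in 5 genes, mock above in 21, MeJA below in 63, neither in 40), and the blue MeJA-treated columns labelled WT stand out in the third group.

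Individual genes show these patterns. They were picked after their values were seen, among genes with at least 10 fragments in each mock-treated library labelled WT and no overlap with another annotated locus. The deposited tables give no gene name for any of them. Coordinates are those of the deposited tables, whose genome build is not given in the sources used here.

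BRADI1G38050, on chromosome 1 from 34194509 to 34195561, had both pairs labelled WT apart. Its values were 3.61 and 2.88 FPKM in the MeJA-treated libraries labelled WT and 12.5 and 10.6 FPKM in the mock-treated ones. It had 7.11 and 7.72 FPKM in the MeJA-treated libraries labelled MTL-OX and 10.4 and 7.95 FPKM in the mock-treated ones. The libraries labelled MTL-OX thus lay between the pairs labelled WT, and their own treatments did not overlap. The log2 difference with MeJA was −1.57 (standard error 0.17) in the libraries labelled WT and −0.26 (standard error 0.17) in those labelled MTL-OX.

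BRADI3G30730, on chromosome 3 from 32927572 to 32928344, had a high mock pair. It had 12.2 and 9.62 FPKM in the MeJA-treated libraries labelled WT, against 34.7 and 47.2 FPKM in the mock-treated ones. The libraries labelled MTL-OX had 18.9 and 7.84 FPKM after MeJA and 18.2 and 14.8 FPKM after mock treatment. Of the 3 lower pairs, the MeJA-treated pair labelled MTL-OX overlapped both others, while the MeJA-treated pair labelled WT lay below the mock-treated pair labelled MTL-OX. The log2 difference was −1.81 (standard error 0.37) in the libraries labelled WT, and it rested on 93.9 to 444 fragments per library.

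BRADI1G12130, on chromosome 1 from 9018584 to 9019682, was among the 10 genes with the highest mock levels and had a low MeJA pair. Its values were 62.0 and 84.8 FPKM in the MeJA-treated libraries labelled WT and 218 and 160 FPKM in the mock-treated ones. Where the label was MTL-OX it had 211 and 286 FPKM after MeJA and 558 and 312 FPKM after mock treatment. The MeJA values were below the mock values under both labels, with a mock to MeJA ratio of 2.57 in the libraries labelled WT and 1.75 in those labelled MTL-OX, so the fold threshold alone separated it from the genes lowered under both labels. Its log2 differences were −1.35 and −0.76 (standard error 0.33 for each).

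**Figure D3:**
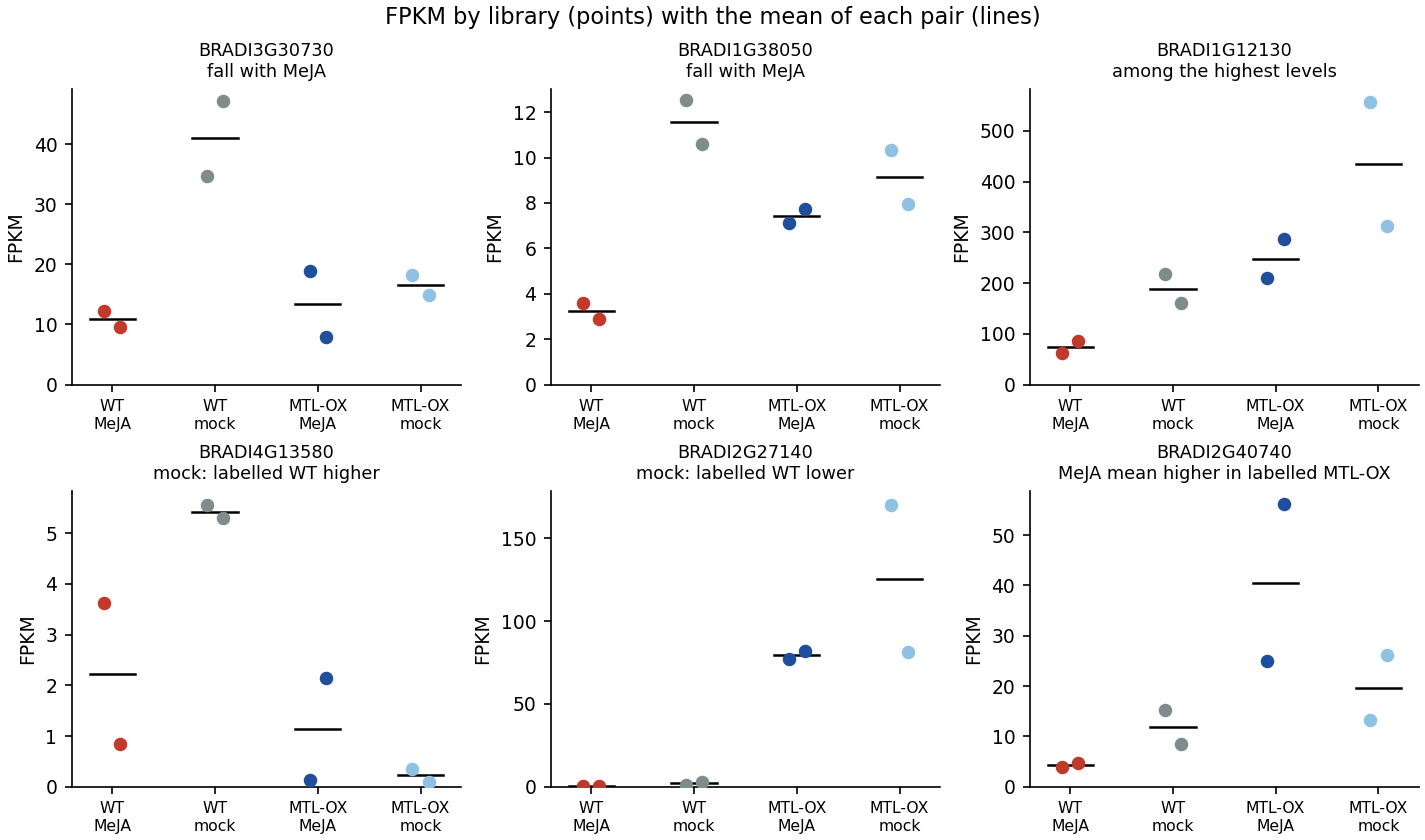
FPKM of 6 of the 129 genes in each library (points) with the mean of each pair (lines), for MeJA-treated and mock-treated libraries labelled WT and then those labelled MTL-OX; every vertical axis starts at 0. The red MeJA-treated pair labelled WT lies below the grey mock-treated pair in each panel by the rule, while the levels in the libraries labelled MTL-OX range from far below to far above both.

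The genes also differed between the labels within a treatment. After mock treatment, the libraries labelled WT had a mean at least 2 times that of the libraries labelled MTL-OX in 25 genes (19.4%, against 4.92% of all tested genes), the reverse held in 8 (6.20%, against 1.82%), and 96 were within 2-fold (74.4%, against 93.4%). The mock values labelled WT were higher without overlap in 39 genes (30.2%, against 43.3% of all tested genes) and lower without overlap in 18 (13.95%, against 9.06%). After MeJA, the libraries labelled WT had a mean at least 2 times that of the libraries labelled MTL-OX in 3 genes (2.33%, against 5.43% of all tested genes), and the reverse held in 76 (58.9%, against 3.47%). Both MeJA values labelled WT lay below both labelled MTL-OX in 86 genes (66.7%), against 24.7% of all tested genes. These comparisons share their libraries with the rule and are descriptions, on unscaled FPKM.

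BRADI4G13580, on chromosome 4 from 13906982 to 13909195, had the largest mock ratio of labelled WT to labelled MTL-OX among the genes with at least 10 fragments and no overlapping locus whose mock values were higher in labelled WT without overlap. It had 5.55 and 5.29 FPKM in the mock-treated libraries labelled WT, against 0.358 and 0.0958 FPKM in those labelled MTL-OX, a ratio of 23.9. After MeJA it had 3.62 and 0.846 FPKM in the libraries labelled WT and 0.127 and 2.14 FPKM in those labelled MTL-OX, and these pairs overlapped.

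BRADI2G27140, on chromosome 2 from 25887532 to 25891726, had the opposite pattern. It had 0.351 and 0.566 FPKM in the MeJA-treated libraries labelled WT, against 77.3 and 81.7 FPKM in those labelled MTL-OX. After mock treatment it had 1.37 and 2.92 FPKM in the libraries labelled WT, against 170 and 81.6 FPKM in those labelled MTL-OX. Its fall with MeJA in the libraries labelled WT, from 9 and 14 fragments after MeJA against 39.5 and 80.2 after mock treatment, was small beside the gap between the labels. On the log2 scale that gap was −5.29 after mock treatment and −5.79 after MeJA (labelled WT minus labelled MTL-OX, standard error 0.37 for each).

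BRADI2G40740, on chromosome 2 from 41039133 to 41041217, had the higher mean after MeJA in the libraries labelled MTL-OX. It had 24.9 and 56.1 FPKM after MeJA and 13.2 and 26.1 FPKM after mock treatment there, and the pairs overlapped. In the libraries labelled WT it had 3.94 and 4.77 FPKM after MeJA and 15.3 and 8.44 FPKM after mock treatment. The MeJA pair labelled WT was below all 6 other libraries.

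The 129 genes were expressed at low levels. Their mean FPKM over the 8 libraries had a median of 2.86, against 8.23 for all tested genes, and 41 of them (31.8%, against 12.5%) were under 2 FPKM. In the mock-treated library labelled WT with fewer fragments, the median gene had 42.4 fragments, against 225 for all tested genes. At least 100 fragments in both of these libraries were found for 40 genes (31.0%, against 71.7%). These 40 genes had a median fold of 2.38 (2.01 to 4.27) and median log2 differences with MeJA of −1.11 in the libraries labelled WT and −0.08 in those labelled MTL-OX.

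Under 10 fragments in a mock-treated library labelled WT stood behind 21 genes (16.3%, against 3.15% of all tested genes). The widest log2 differences came from such genes. BRADI1G14380, on chromosome 1 from 11315123 to 11315293, was listed at 0 in both MeJA-treated libraries labelled WT, and its 89.0 and 954 FPKM in the mock-treated ones came from 1 and 7 fragments in a locus of 171 bp. BRADI4G01960, on chromosome 4 from 1287124 to 1287446, was listed at 0 in both MeJA-treated libraries labelled WT and had 21.1 and 30.2 FPKM in the mock-treated ones, from 1 fragment each. It was listed at 0 in the 4 libraries labelled MTL-OX too. Both genes are named because their log2 differences were the widest.

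**Figure D4:**
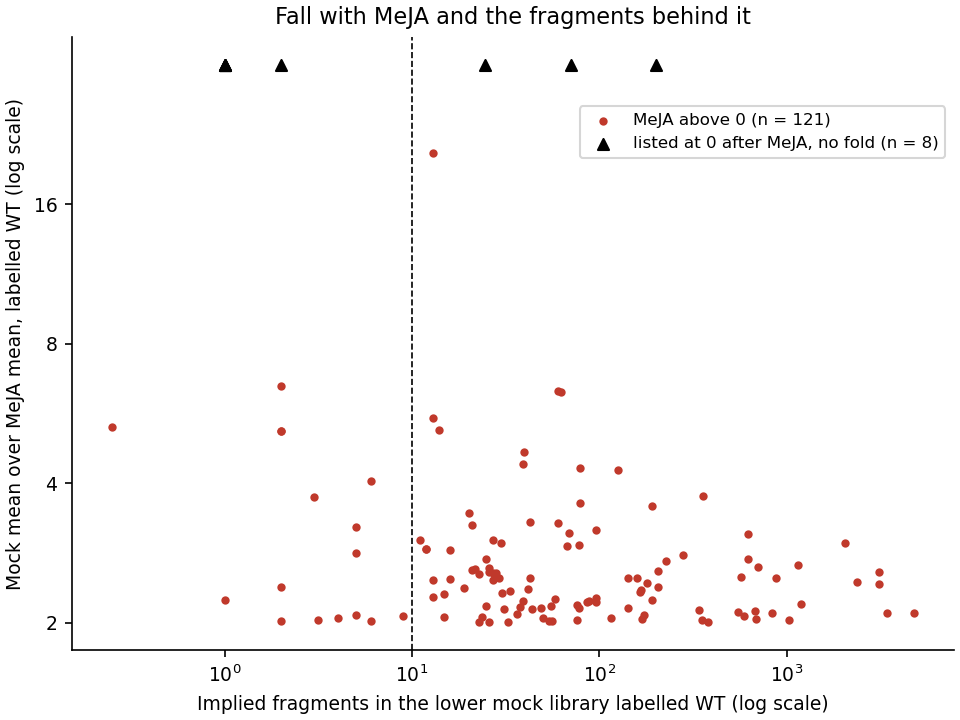
For each of the 129 genes, the ratio of the mock to the MeJA mean in the libraries labelled WT (vertical, log scale) is plotted against the implied fragments in the mock-treated library of that label that has fewer (horizontal, log scale); the dashed line marks 10 fragments. Black triangles, set above the other points because no fold can be given, are the 8 genes listed at 0 after MeJA, some of them drawn on top of each other. The 40 genes with at least 100 fragments have folds of 2.01 to 4.27.

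In all, 8 genes were listed at 0 in both MeJA-treated libraries labelled WT. For 5 of them no mock-treated library of that label held more than 7 fragments. The other 3 lie in loci that overlap another annotated locus, where fragments can be assigned to either gene. BRADI4G03220, on chromosome 4 from 2562252 to 2566013, was listed at 0 in both MeJA-treated libraries labelled WT, against 8.83 and 6.04 FPKM in the mock-treated ones, from 286 and 200 fragments. It was listed at 0 in all 4 libraries labelled MTL-OX. The gene that shares 1648 bp with it had 60.3 and 60.8 FPKM in the MeJA-treated libraries labelled WT and 52.9 and 34.8 FPKM in the mock-treated ones. That gene was higher after MeJA without overlap there, and the part of fragment assignment in the fall of BRADI4G03220 was not tested.

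BRADI1G69627 gave a similar picture. It was listed at 0 in both MeJA-treated libraries labelled WT, against 2.36 and 4.33 FPKM in the mock-treated ones. Its values in the libraries labelled MTL-OX were 3.86 and 3.07 FPKM after MeJA and 5.93 and 2.78 FPKM after mock treatment. The gene that shares 1068 bp with it had 11.7 and 12.4 FPKM in the MeJA-treated libraries labelled WT and 10.4 and 9.67 FPKM in the mock-treated ones. In all, 7 of the 129 genes overlapped another locus (5.43%, against 4.09% of all tested genes), and 102 had neither an overlap nor fewer than 10 fragments in a mock-treated library labelled WT. Over these 102 genes the median log2 difference with MeJA was −0.91 (−1.81 to −0.46) in the libraries labelled WT and −0.05 (−1.17 to 1.28) in those labelled MTL-OX.

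Both named genes are miRNA loci, and each lies wholly inside a longer annotated gene. A miRNA gene is transcribed into a hairpin precursor from which a short mature RNA is cut, and mRNA libraries report the precursor or its host transcript, not the mature form. bdi-MIR7730, on chromosome 2 from 50019627 to 50020106, had 1.24 and 0.649 FPKM in the MeJA-treated libraries labelled WT and 2.27 and 3.20 FPKM in the mock-treated ones, from 3 to 16 fragments. In the libraries labelled MTL-OX it had 1.54 and 1.01 FPKM after MeJA and 1.73 and 1.36 FPKM after mock treatment. The gene around it had 130 and 128 FPKM in the MeJA-treated libraries labelled WT and 118 and 133 FPKM in the mock-treated ones, and these pairs overlapped. bdi-MIR7759, on chromosome 2 from 47694041 to 47694348, had 0.769 and 0 FPKM in the MeJA-treated libraries labelled WT and 1.55 and 3.45 FPKM in the mock-treated ones, from at most 4 fragments per library. The gene around it had 0.350 and 0.375 FPKM in the MeJA-treated libraries labelled WT and 0.431 and 0.437 FPKM in the mock-treated ones, lower after MeJA without overlap. Their sequences are not given, since the references used here hold none.

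Replicates of a group differed by a wide ratio more often among these genes than among all tested genes. A ratio of at least 1.5 between the 2 replicates was found for 50.4% of the genes in the MeJA-treated libraries labelled WT, against 7.74% of all tested genes, and for 47.3% in the mock-treated ones, against 16.5%. The shares were 56.6% in the MeJA-treated libraries labelled MTL-OX, against 18.4%, and 65.9% in the mock-treated ones, against 28.6%. The genes were also thinly covered, with a median of 42.4 fragments in the lower mock-treated library labelled WT. Whether depth had a part in these ratios was not tested.

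The direction of the replicate difference was not shared by all genes. In the mock-treated libraries labelled WT, replicate 2 was at least 1.5 times replicate 1 in 31 genes, replicate 1 at least 1.5 times replicate 2 in 30, and 68 were within 1.5-fold. Of the 31 genes, 25 (80.6%) were higher in replicate 5 than in replicate 6 of the mock-treated libraries labelled MTL-OX, against 48.8% of all tested genes with the same ratio between replicates 2 and 1. Their median FPKM was 4.19 in replicate 5 and 2.66 in replicate 6. Replicate 5 also had the higher median in the 30 genes (3.32 against 2.74) and in the 68 (3.83 against 3.63). Of the 30 genes, 15 (50%) were higher in replicate 6 than in replicate 5, against 63.4% of all tested genes with the same ratio between replicates 1 and 2. In the MeJA-treated libraries labelled MTL-OX, replicate 7 was above replicate 8 in 24 of the 31 genes, against 962 of 1383 tested genes. Replicate 8 was above replicate 7 in 23 of the 30, against 844 of 1049 tested genes. This grouping was made after the values were seen.

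**Figure D5:**
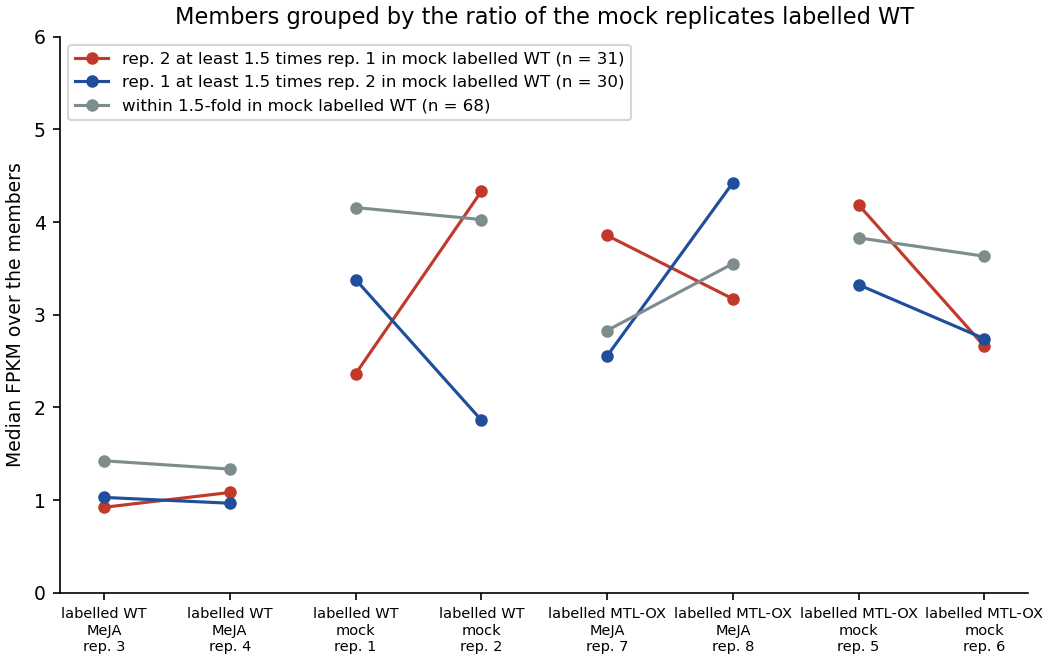
Median FPKM over the genes in each library, for the 31 genes with replicate 2 at least 1.5 times replicate 1 in the mock-treated libraries labelled WT (red), the 30 with the reverse (blue) and the 68 within 1.5-fold (grey); lines join the 2 libraries of a group. In the mock-treated libraries labelled MTL-OX, the medians of all 3 sets are higher in replicate 5 than in replicate 6. They are 4.19 and 2.66 for the red genes, 3.32 and 2.74 for the blue and 3.83 and 3.63 for the grey. The medians of all 3 sets in the MeJA-treated libraries labelled WT are under 1.5.

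Properties that the rule did not use were compared with all tested genes as a description. The loci of the 129 genes had a median length of 1575 bp (171 to 13562), against 3316 bp, and 17 of them (13.2%) were under 500 bp, against 2.02%. In such short loci 1 fragment corresponds to many FPKM, and 15 of the 21 genes with under 10 fragments had a locus under 500 bp. The genes were spread over all chromosomes, with 39 on chromosome 1 (30.2%, against 30.4% of the tested genes), 29 on chromosome 2, 25 on chromosome 3, 24 on chromosome 4 (18.6%, against 14.6%) and 12 on chromosome 5. Within 50000 bp of each other lay 4 pairs, and 1 pair was adjacent in gene order. No background over all tested genes was computed for these pairs, so nothing is read from them.

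Compared with the 35 genes lowered under both labels, the 129 genes were shorter and more thinly covered. The 35 genes had a median locus of 1967 bp and a median of 103 fragments in the lower mock-treated library labelled WT, and 1 of them had under 10. Their median log2 difference with MeJA was −1.12 in the libraries labelled WT and −1.07 in those labelled MTL-OX. The 93 genes lowered only in the libraries labelled MTL-OX had a median locus of 1728 bp, also shorter than that of the 35. Their median was 31.9 fragments in the same mock-treated libraries labelled WT, which did not choose them, and 28 of the 93 had under 10 there. They had a median log2 difference of −0.21 in the libraries labelled WT and −1.01 in those labelled MTL-OX.

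A model across all genes called few of them. limma was fitted to log2(FPKM + 1) with a mean for each group, which leaves 4 residual degrees of freedom. At a Benjamini-Hochberg adjusted p of 0.05 and a 2-fold difference, 3 of the 14922 genes (0.0201%) were lower after MeJA in the libraries labelled WT, and 2 of them, BRADI4G01960 and BRADI4G03220, were among the 129 genes. Before adjustment, 894 of the 14922 genes had a limma p below 0.05, where a share of 0.05 is expected if nothing differs. The same share applies to the other unadjusted counts given here. The difference between the MeJA responses, labelled WT minus labelled MTL-OX, was called as lower for 2 genes (0.0134%), with 946 genes at an unadjusted p below 0.05, and 1 of the 2, BRADI4G01960, was among the 129. The median standard error of the log2 difference in the libraries labelled WT was 0.36 over the 129 genes (0.15 to 2.28). No gene of the 129 was called for the difference without replicate 3 or 4 of the MeJA-treated libraries labelled WT, replicate 2 of the mock-treated ones or replicate 8 of the MeJA-treated libraries labelled MTL-OX. Since the rule used the same contrasts, nothing is read from these calls.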

How the data were processed

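The 8 mRNA-seq libraries were sequenced and aligned by the authors with TopHat2 in Galaxy, and Cufflinks was used to estimate abundance. The deposited unit is FPKM per gene for each library, with confidence bounds, and no counts were used here. Annotation or alignment build is not given in the sources used here. Rows with the same gene identifier were summed, and FPKM was not scaled. Groups follow the sample labels; the rule that chose the genes is stated in table names, which give the other genotype, so it was applied to the libraries labelled WT. The genes and all lists were chosen with earlier results of these data known.

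Implied fragments were the square of 2 times FPKM divided by its distance to the upper bound, and cover counting and assignment error within a library only. The 14922 genes that averaged 1 FPKM or more were fitted with limma 3.58.1 in R 4.3.3 (mean-variance trend) on log2(FPKM + 1), a pseudocount of 1, with 4 group means. The model was also run on simulated data. No outcome of that run is given here, so nothing is read from it for the thinly covered genes described above. Sums and ratios were computed with pandas 2.3.3 in Python 3.11.15. The rule for named genes took the 10 widest log2 falls and the 10 highest mock levels, but at most 2 without an annotated name; others were chosen after their values were seen. Alternatives were another pseudocount, median-ratio scaling, other filters and folds, and each library left out. Gene lists and cell markers that need gene names were not applied.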

Additional observations from a re-analysis of the deposited data

Results flagged for a closer look

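BRADI4G01960 was the 1 gene of the 129 past the threshold of limma's interaction test. The rule chose it on the same values, so the test restates the choice and supports nothing. The log2 difference of the responses, labelled WT minus labelled MTL-OX, was −4.71 with a standard error of 0.29 and, by limma, a Benjamini-Hochberg adjusted p of 0.0142. Its adjusted p rests on 1 fragment in each mock-treated library labelled WT, and it was listed at 0 in the 6 other libraries. The call was lost with a pseudocount of 0.1, at a mean FPKM of at least 5 and without replicate 2, 3, 4 or 8. Groups of 2 libraries were too small to be examined for outlying samples.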

How the results depend on the processing

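The rule gave 137 genes after median-ratio scaling (120 of the 129 kept). It gave 540 without a filter on low values and 48 at a mean FPKM of at least 5. A fold of 1.5 under both labels, also for leaving genes out, gave 350 (111 of the 129 kept). A fold of 3 in the libraries labelled WT, with 2 kept for those labelled MTL-OX, gave 36. With 1 FPKM added to both means there were 62 (56 kept). There were 80 when the fold in the libraries labelled MTL-OX had to be under 1.5. The 80 leave out the 2 genes listed at 0 in all 4 libraries labelled MTL-OX. With at least 10 fragments 108 genes remained, and with status OK in all libraries all 129. Requiring no overlap with another locus, an alternative chosen after seeing the data, left 122, and both requirements 102. With 1 library left out the number lay between 100 and 277. The median log2 difference with MeJA in the libraries labelled WT was −1.24 with a pseudocount of 0.1 and lay between −0.996 and −0.912 with 1 library left out. In the libraries labelled MTL-OX it was −0.18 after scaling and lay between −0.120 and 0.0382 with 1 library left out. limma called 5 genes with MeJA in the libraries labelled WT (0 with a pseudocount of 0.1 and 0 at a mean FPKM of at least 5, 1 to 15 with 1 library left out), 2 of them among the 129 (0 and 0, 1 to 3). The difference in response was called for 2 genes (0 with a pseudocount of 0.1, 7 without a filter, 0 at a mean of 5, 0 to 10 with 1 library left out), 1 of them among the 129 (0, 2 and 0, 0 to 2). With a pseudocount of 0.1, 890 of 14922 genes had an unadjusted limma p below 0.05 in the libraries labelled WT, and 951 for the difference. At a mean FPKM of at least 5, these numbers were 585 and 659 of 9657 genes. Apart from the easier no-overlap criterion of the rule with 1 library left out, the causes of these changes were not tested. No paired analysis was possible because the replicate numbers 1 to 8 are not shared between groups. With 2 libraries in a group and under 10 fragments behind 21 genes, small differences were not detectable at this depth.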

Other observations

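The rule left out 11 genes that were lowered by MeJA in the libraries labelled WT and raised in those labelled MTL-OX. BRADI3G07610, on chromosome 3 from 5742015 to 5743705, had 6.69 and 7.85 FPKM in the MeJA-treated libraries labelled WT, against 22.1 and 15.4 FPKM in the mock-treated ones. In the libraries labelled MTL-OX it had 8.11 and 11.97 FPKM after MeJA, against 2.46 and 6.45 FPKM after mock treatment. BRADI1G61010, on chromosome 1 from 60386040 to 60387915, had 6.74 and 7.45 FPKM in the MeJA-treated libraries labelled WT, against 17.8 and 33.0 FPKM in the mock-treated ones. Where the label was MTL-OX, it had 22.5 and 28.3 FPKM after MeJA, against 14.4 and 7.54 FPKM after mock treatment. In both genes the mock-treated libraries labelled WT lay above the mock-treated libraries labelled MTL-OX. They were named after their values were seen.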
